A study of Mus musculus with 8 samples.

Results

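Ephx1, Phlda3, Aen, Perp, Rps27l, Ei24, Dcxr, Abhd4, Acer2 and Plk2 were followed in mouse thyroids exposed to 99mTcO4-, the pertechnetate ion carrying the radioisotope technetium-99m, which thyroid cells take up as they take up iodide. These 10 genes, of 21021 genes read by a RefSeq probe on the array, were chosen by their measured difference between the exposed and the control thyroids of these same arrays, and by their known link to p53. Their exposed-minus-control differences are therefore given as a description, with no test. The controls, numbered 1 to 4, were thyroids of female Balb/c mice that the study describes in one place as untreated and in another as given saline. The exposed thyroids, named S539, S588, S589 and S590, came from mice of the same kind, obtained at 8 weeks of age, whose thyroids had absorbed 30 Gy from 99mTcO4-. RNA was taken 24 hours after administration, and each thyroid was hybridised to 1 one-colour array (4 biological replicates per group), so that the signal of a spot measures 1 sample's transcript. No mouse lacking p53 was part of the design, so a dependence on p53 was not measured here.

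The transcription factor p53 is stabilised when DNA is broken, and it then switches on genes that halt the cell cycle, trigger cell death, adjust metabolism or restrain p53 itself. It binds DNA as a tetramer, at a pair of adjacent decamers that each follow the same consensus. The 10 genes are targets or partners of this response, and their products have various roles. Phlda3 competes with the kinase Akt for membrane lipids, Perp is a tetraspan protein of desmosomes, Aen is a nuclease, Ei24 sits in the endoplasmic reticulum membrane and Plk2 is a polo-like kinase that acts on centrioles. Rps27l is a ribosomal protein that also binds Mdm2. Ephx1, Dcxr, Abhd4 and Acer2 are enzymes for epoxides, carbonyl sugars, N-acyl phospholipids and ceramide, respectively.

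The promoters are shown first because the genes were grouped through p53. RefSeq start sites (build GRCm38.p6) were found for 9 of the 10 genes, and Perp was not among them. Of these 9 genes, 3 had 2 start sites, which gave 12 promoters, each of 300 bases (250 before the start and 50 after). A single decamer that fits the p53 consensus was looked for on both strands, and 5 of the 12 promoters, belonging to 4 genes, held at least 1, against 8.36% of 32851 mouse promoters of the same length. A match to 1 decamer is a description of the letters, and binding was not measured. The 4 promoters below are those that hold it, with 1 start site shown per gene, read 5′ to 3′ along the gene, and the capitals mark the matching decamer.
Aen, first start site, chr7:78895677-78895976, plus strand: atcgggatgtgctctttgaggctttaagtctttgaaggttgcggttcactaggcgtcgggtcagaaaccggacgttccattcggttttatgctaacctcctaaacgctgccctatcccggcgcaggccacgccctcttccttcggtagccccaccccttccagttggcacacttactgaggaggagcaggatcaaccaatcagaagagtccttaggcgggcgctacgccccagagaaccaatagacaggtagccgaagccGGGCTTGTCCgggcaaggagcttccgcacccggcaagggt
Rps27l, second start site, chr9:66946163-66946462, plus strand: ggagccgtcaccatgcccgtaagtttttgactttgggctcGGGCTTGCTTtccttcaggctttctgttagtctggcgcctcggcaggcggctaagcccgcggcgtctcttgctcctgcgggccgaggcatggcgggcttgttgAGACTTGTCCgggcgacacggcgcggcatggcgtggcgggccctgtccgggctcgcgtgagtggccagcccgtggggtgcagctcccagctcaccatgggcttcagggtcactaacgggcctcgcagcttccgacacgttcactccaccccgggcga
Ei24, chr9:36797285-36797584, minus strand: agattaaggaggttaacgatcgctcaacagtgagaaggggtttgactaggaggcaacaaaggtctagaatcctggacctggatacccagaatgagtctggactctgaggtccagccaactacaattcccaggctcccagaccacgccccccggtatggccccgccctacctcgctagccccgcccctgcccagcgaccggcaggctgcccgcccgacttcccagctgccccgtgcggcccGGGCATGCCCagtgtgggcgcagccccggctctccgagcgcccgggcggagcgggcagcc
Abhd4, second start site, chr14:54259033-54259332, plus strand: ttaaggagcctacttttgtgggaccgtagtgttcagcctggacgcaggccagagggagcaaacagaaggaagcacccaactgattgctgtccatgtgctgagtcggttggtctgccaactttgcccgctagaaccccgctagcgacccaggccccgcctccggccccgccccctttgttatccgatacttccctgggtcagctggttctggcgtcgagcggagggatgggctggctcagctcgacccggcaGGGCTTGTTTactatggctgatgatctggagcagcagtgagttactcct

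In Aen the match began 10 bases after the first start site. The window of the second Aen start site holds the same match, so these 2 windows hold 1 decamer and not 2. In Ei24 the match began 10 bases before the start. The Rps27l promoter held 2 matches, which began 117 and 220 bases after the first Rps27l start site. The Abhd4 match lay 5155 bases after the first start site of that gene and 1 base after the second. No match was found in the windows of Ephx1, Phlda3, Dcxr, Acer2 and Plk2, which says only that these letters are not in these 300 bases. The GC box (GGGCGG, either strand) was present in 9 of the 12 promoters, in 8 genes, against 35.7% of all promoters. The CCAAT box (CCAAT, either strand) was present in 6 of 12 against 37.4%, and the TATA box (TATAAA, either strand) in 1 of 12, that of Ephx1, against 13.6%. The share of G and C ran from 50.7% in the Dcxr promoter to 73.0% in that of Acer2 over the 12 promoters, beside a median of 52.7% over all promoters.

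The arrays shared 1 slide and 1 scan. Exposed thyroids filled positions 1 to 4 of the slide and controls positions 5 to 8, and an effect of position cannot be told apart from one of exposure. Between 60.5% and 77.3% of spots were well above background, no spot was saturated, and any 2 arrays correlated with an r of 0.943 to 0.975. Of 12 thyrocyte markers 11 were well above background on every array. The summed signal of the 12 ranged from 505212 to 626952 on control and from 478936 to 622483 on exposed arrays. Most of this sum came from Tg, at a mean log2 signal of 18.85 in control and 18.89 in exposed thyroids. Of the 12 markers 2 had a log2 difference above 0, and the median was -0.41. Slc5a5, the sodium iodide symporter, was the marker that passed limma's threshold, with a log2 fold change of -3.53 (adjusted p = 0.0137). Duoxa2, at -1.05, did not pass (limma's adjusted p = 0.100), though like Slc5a5 it did not overlap between the groups. The thyroids also carried other tissue. The summed signal of 8 skeletal muscle markers was 983735 to 1889930 on control arrays and 490347 to 1528780 on exposed arrays, and that of 10 markers of developing T cells was 71783 and 38158 on controls 1 and 2, against 6056 to 10286 on the other 6 arrays. On every array, 8 of the 8 muscle and 4 of the 10 T cell markers exceeded background clearly. Of 8 macrophage markers 7 had a log2 difference below 0, with a median of -0.42, and their summed signal was 17070 to 23619 on control and 13715 to 17396 on exposed arrays. Csf1r and Adgre1 did not overlap between the groups, with gaps of 0.15 and 0.030 and limma's adjusted p of 0.149 and 0.362. The share of all genes that lay lower without overlap is not given here, so nothing is read from these cases or from Duoxa2. All 4 adipocyte markers were above 0, with a median of 0.55 and sums of 118352 to 195711 on control and 139024 to 377221 on exposed arrays, the highest in S589. All 4 markers of parathyroid and C cells were above 0 as well, with sums of 403537 to 585839 and 537521 to 678603. Markers of stratified epithelium summed to 10972 to 23893 and 12178 to 12445, and those of endothelium to 14586 to 24870 and 14085 to 16628. No gene of these lists of other tissues passed the threshold. Each marker was well above background on at least 1 array, but not each on all of them, and Calcb was so on 0 of 4 control arrays. The part of any of these cell types in the values of the 10 genes was not tested. In bulk tissue, fewer cells of a type and less RNA per cell cannot be told apart.

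In every one of the 10 genes the 4 exposed thyroids lay above the 4 control thyroids, with no overlap, on the probe used to read the gene. Over all RefSeq genes this pattern was found in 5.44%, and nothing is read from the comparison, since the genes were chosen on this contrast. The log2 differences (exposed minus control) ran from 1.17 for Plk2 to 2.91 for Dcxr, with a median of 1.57, while the median over all probes was 0.0077. In the fit over all probes, limma called 0.781% of 55681 probes in either direction and 0.904% of RefSeq genes higher, and by choice all 10 genes lay among the latter. The smallest gap between the lowest exposed and the highest control thyroid was 0.69 on the log2 scale, in Abhd4, and the largest 2.46, in Dcxr. The spread within groups was small beside these gaps, with a median SD of 0.28 in control and 0.25 in exposed thyroids.

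**Figure D1:**
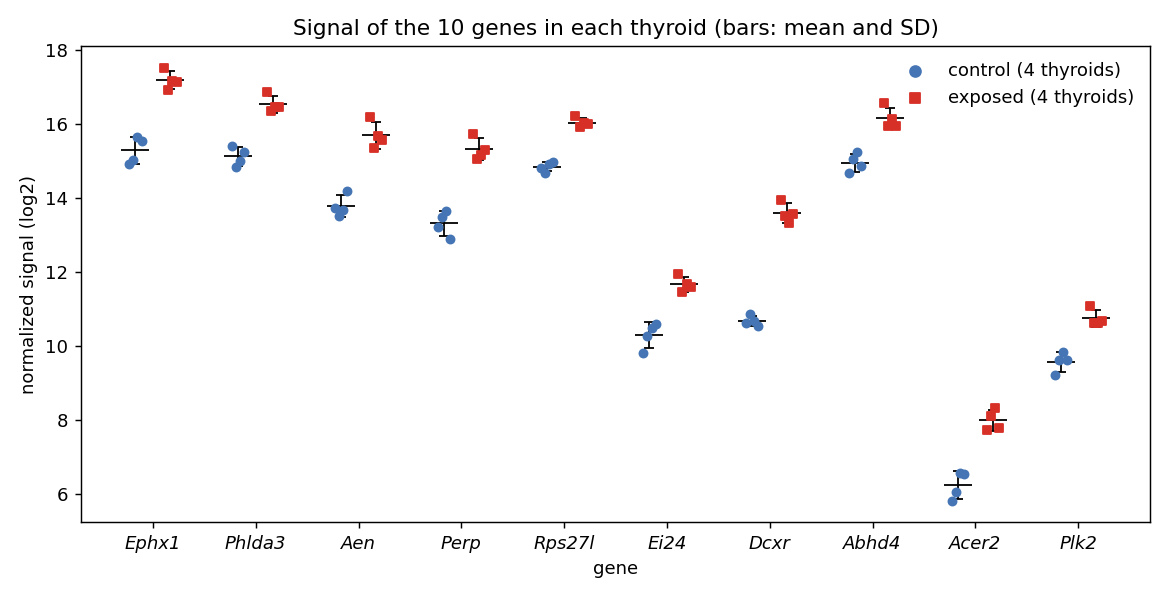
Normalized log2 signal (vertical axis) of each of the 10 genes (horizontal axis) in 4 control (circles) and 4 exposed (squares) thyroids, with the mean and SD of each group. In each gene the exposed thyroids lie above the control thyroids, by the widest margin in Dcxr. Heights of different genes are signals of different probes and are not comparable.

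Of the 10 genes, those linked to cell death and growth arrest are Perp, Aen, Phlda3, Ei24 and Plk2, and Perp differed most among these. Its log2 signal was 13.22, 13.49, 13.66 and 12.90 in controls 1 to 4, and 15.73, 15.05, 15.17 and 15.31 in S539, S588, S589 and S590. The mean difference of 2.00 ± 0.22 (SE, n = 4 per group) is a fold change of 4.00. The probe (chr10, mm9) was the single one for Perp and gave a signal well above background on all 8 arrays.

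Aen gave 13.73, 13.50, 13.66 and 14.20 in the controls and 16.18, 15.34, 15.69 and 15.57 in the exposed thyroids. Control 4 was the highest control and S539 the highest exposed thyroid, and the groups stayed 1.14 apart. The difference was 1.92 ± 0.23 (SE, n = 4 per group), or 3.78-fold, and a second probe gave 1.97. These probes share 50 bases (chr7:86053207-86053266 and chr7:86053197-86053256, mm9), so they count as nearly the same measurement.

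Phlda3 was at 15.41, 14.84, 15.01 and 15.25 in the controls and at 16.86, 16.34, 16.45 and 16.47 in the exposed thyroids, a difference of 1.40 ± 0.18 (SE) or 2.65-fold. S539 stood above the other exposed thyroids, and the lowest exposed thyroid was 0.93 above the highest control.

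Ei24 was at 9.83, 10.27, 10.49 and 10.60 in the controls and at 11.94, 11.46, 11.69 and 11.61 in the exposed thyroids, which is 1.38 ± 0.20 (SE) or 2.60-fold. Control 1 was the lowest of the controls for Ei24, as it was for Plk2. Plk2 gave 9.21, 9.62, 9.83 and 9.63 in the controls and 11.09, 10.62, 10.62 and 10.67 in the exposed thyroids. Its difference of 1.17 ± 0.19 (SE), or 2.26-fold, was the smallest of the 10.

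Rps27l had the least spread. Its log2 signal was 14.81, 14.68, 14.91 and 14.96 in the controls and 16.21, 15.91, 16.03 and 16.01 in the exposed thyroids, with an SD of 0.12 and 0.13. The difference was 1.20 ± 0.13 (SE), or 2.29-fold. The probe spans chr9:66795486-66797176 (mm9), further than its own length, so it bridges a junction in the transcript. Rps27l is closely similar to Rps27, and how far the probes of either gene bind transcripts of the other is uncertain. The probe read for Rps27 is placed at chr9:114891509-114891568 (mm9) and may also bind near-identical copies of that gene. It gave 0.19 (SE 0.13, limma's adjusted p = 0.588).

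Of the 4 enzymes, Dcxr, which reduces L-xylulose and reactive dicarbonyls, differed most of all 10 genes. Its log2 signal was 10.62, 10.88, 10.69 and 10.55 in the controls and 13.95, 13.52, 13.34 and 13.58 in the exposed thyroids. The controls fell within a narrow band, and the lowest exposed thyroid was 2.46 above the highest of them. The difference was 2.91 ± 0.17 (SE, n = 4 per group), or 7.53-fold, and a second probe that does not overlap the first gave 3.12 ± 0.18.

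Ephx1, the microsomal epoxide hydrolase that opens reactive epoxides to diols, gave 14.91, 15.03, 15.66 and 15.55 in the controls and 17.52, 16.92, 17.16 and 17.14 in the exposed thyroids. Controls 1 and 2 lay below controls 3 and 4, and all exposed thyroids were at least 1.27 above the highest control. The difference was 1.90 ± 0.22 (SE), or 3.73-fold. A second probe, whose start lies 4435 bases away on chromosome 1, gave 2.04 ± 0.25, within the error of the first.

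Abhd4, a lysophospholipase on the way to N-acyl ethanolamines such as anandamide, was at 14.68, 15.05, 15.25 and 14.86 in the controls and at 16.57, 15.96, 16.14 and 15.94 in the exposed thyroids, a difference of 1.19 ± 0.20 (SE) or 2.29-fold.

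Acer2, a ceramidase of the Golgi that releases sphingosine, stood apart in signal. It gave 5.83, 6.06, 6.58 and 6.54 in the controls and 7.74, 8.13, 8.32 and 7.80 in the exposed thyroids, which is 1.74 ± 0.23 (SE) or 3.35-fold. The word bright, used for the 10 genes when they were grouped, does not describe this probe, whose mean log2 signal over the 8 arrays was 7.12. A second, dimmer probe was well above background on 1 of 4 control and 4 of 4 exposed arrays. It gave 4.72, 4.91, 5.14 and 5.76 in the controls and 6.60, 5.72, 6.78 and 6.38 in the exposed thyroids, where S588 fell just below control 4. That was the 1 probe, of 14 for the 10 genes, on which the groups overlapped. The size of the Acer2 difference also depended on the treatment of background, and it was 0.98 after normexp correction and 1.03 in the deposited values.

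Within the exposed group the 10 genes did not vary independently. S539 was the highest exposed thyroid in 9 of the 10 genes, with a median deviation from the group mean of 0.34 on the log2 scale and up to 0.49, in Aen. S588 was the lowest in 7 genes, with a median deviation of -0.19. Acer2 was the exception, being lowest in S539 and highest in S589. S539 was also highest in 9 genes when arrays were scaled by their 75th percentile instead, and again in the values the authors deposited. S539 was also high and S588 low beyond the 10 genes, while the order of S589 and S590 was not shared. Of 20 other p53-linked genes that passed the threshold 19 were above their group mean in S539 and 1 in S588, and of 314 other probes called higher 85.4% were above it in S539 and 19.4% in S588. Over all probes the median deviation was 0.022 in S539 and -0.069 in S588. S539 lay in the first position of the slide, its summed muscle signal was 490347, the lowest of the 8 arrays, and its summed T cell signal was 10286, the highest of the exposed arrays. S589, with a muscle sum of 501036, had a median deviation of -0.02 over the 10 genes. The part of position, muscle or T cell content in the order of the exposed thyroids was not tested, and no dose per animal was analysed here. Without S539 the median difference of the 10 genes was 1.53.

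**Figure D2:**
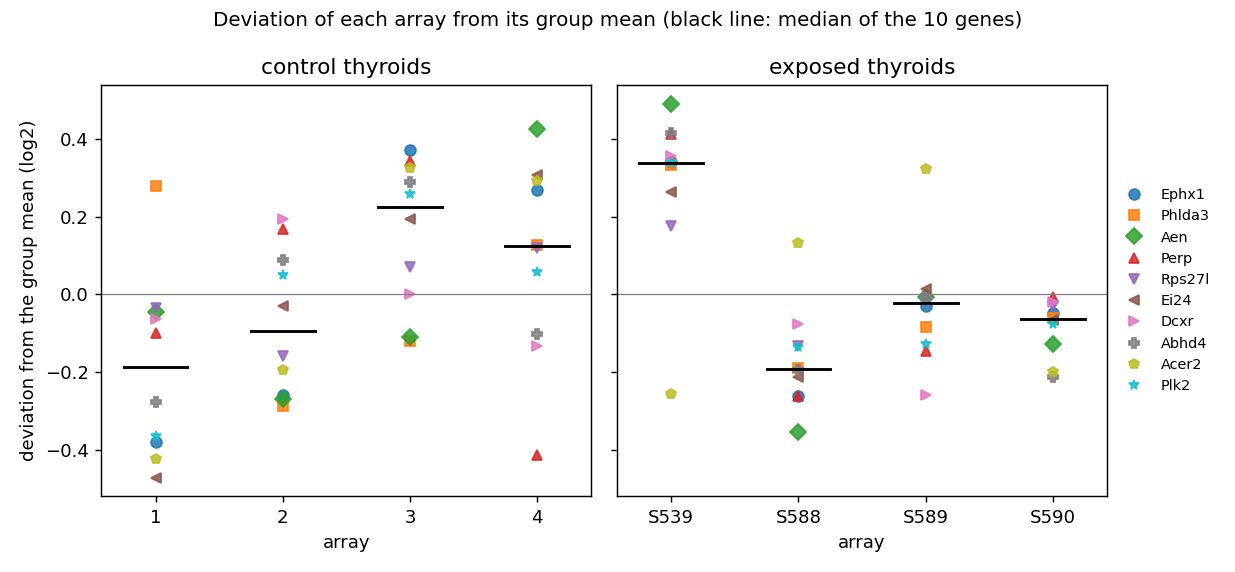
Deviation of each array from the mean of its group (vertical axis, log2 signal) for the 10 genes in the control (left) and exposed (right) thyroids, with the median of the 10 as a black line. S539 lies above the mean in every gene except Acer2, and S588 lies below it in every gene except Acer2.

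The controls had a looser pattern. Control 1 was the lowest control in 5 genes and control 3 the highest in 5, with median deviations of -0.19 and 0.23. Control 1 also had the dimmest array of the controls, its 75th percentile of signal being 701 against 1144 to 1230.0 on the other 3, and its T cell markers gave the highest sum of all. The exposed arrays were dim as well, at 712 to 891, all below those 3 controls. Array brightness thus differed along with exposure, and its part in the differences between the groups was not tested. Over the deviations of all 8 arrays, 42 of the 45 pairs of the 10 genes had a Pearson correlation above 0, with a median of 0.46. The pairs ranged from -0.57, between Dcxr and Acer2, to 0.91, between Ephx1 and Ei24. These values share the 8 arrays and their normalization. They also rest in part on S539, without which 28 of 45 pairs were above 0 over 7 arrays, with a median of 0.30.

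Family members and pathway neighbours of the 10 genes were measured to see whether they moved with them. The list held 40 genes, and all 40 were on the array. By limma 2 of the 40 were higher in exposed thyroids and 0 were lower, where 0.904% and 0.295% of all RefSeq genes were called in these directions. The median log2 difference of the list was 0.015, beside -0.030 over all RefSeq genes. At 36 of the 40 genes the probe was well above background on all arrays. Among the 38 that did not pass, values ran from -1.60 to 0.66, and 19 of the 38 were above 0. Without overlap between the groups, 4 of the 40 lay higher (Plk3, Plk5, Isg20l2 and Emp2) and 2 lower (Xylb and Napepld). Over all RefSeq genes 5.44% lay higher in this way.

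Both genes that passed belong to the polo-like kinases. Plk3, a stress-responsive kinase of this family, rose by 1.26 ± 0.16 (SE), from 8.82, 8.77, 9.16 and 9.08 in the controls to 10.40, 10.11, 10.33 and 10.03 in the exposed thyroids (limma's adjusted p = 0.0175). It no longer passed when control 2, S539, S589 or S590 was left out, with adjusted p from 0.0574 to 0.0725. Plk5, a family member that lacks kinase activity, rose by 2.58 ± 0.22 (SE), from 7.51, 7.35, 7.33 and 7.74 to 10.57, 9.73, 9.79 and 10.15 (adjusted p = 0.0039), and it passed with any array left out.

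Plk1, the mitotic kinase, went against Plk2 in sign without passing the threshold. Its log2 signal was 10.71, 10.30, 7.76 and 7.44 in the controls and 7.90, 7.86, 7.29 and 7.51 in the exposed thyroids, a difference of -1.41 ± 0.76 (SE, limma's adjusted p = 0.495). Controls 1 and 2, the high ones, were those with summed T cell signals of 71783 and 38158, and the part of these cells in the Plk1 values was not tested. Plk4, which drives centriole duplication, gave 0.13 ± 0.43 (adjusted p = 0.926).

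The relatives of the other genes gave no call. Next to Ephx1, the soluble epoxide hydrolase Ephx2 gave 0.59 (SE 0.33), Ephx3 gave 0.062 and Ephx4 gave -0.051. The Phlda3 relatives Phlda1 and Phlda2 gave -0.29 and -1.28, the latter with a probe well above background on 2 control and 1 exposed array. Of the exonucleases related to Aen, Isg20l2 came nearest to the threshold, with 0.66 ± 0.13 (SE, limma's adjusted p = 0.0866) and the exposed thyroids above all controls. Isg20, whose probe lies at chr7:86065136-86065195 (mm9), close to that of Aen, gave -0.55.

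For Perp the list held its tetraspan relatives and the desmosome. Emp2 gave 0.56 ± 0.19 (SE), while Pmp22, Emp1, Emp3 and Tmem47 gave 0.013, -0.16, -0.038 and -0.82. Desmoplakin (Dsp) gave 0.56 ± 0.20, plakophilin Pkp2 gave 0.52 ± 0.19, Pkp3 gave 0.22 ± 0.15 and Jup gave 0.018 ± 0.53. Pkp1 gave -1.60 ± 0.71 and, like Plk1, was highest in controls 1 and 2. None of these passed the threshold.

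In the pathways of the enzymes, the genes around Dcxr gave no call either. Sord, which converts xylitol to xylulose, gave 0.30 ± 0.14 (SE), and Xylb, the xylulose kinase, gave -0.99 ± 0.26 (limma's adjusted p = 0.181). Cbr2, a carbonyl reductase of the same protein family, gave -0.37 ± 0.35. Around Abhd4 the other genes of N-acyl ethanolamine turnover gave -0.45 (Napepld), -0.29 (Gde1) and -1.48 (Faah, SE 0.44, adjusted p = 0.239). Abhd5, also listed for Abhd4, gave 0.58 ± 0.21. Around Acer2, Acer3 gave 0.45 ± 0.23, the acid ceramidase Asah1 gave -0.25 ± 0.18, and the sphingosine kinases Sphk1 and Sphk2 gave 0.49 ± 0.23 and -0.20 ± 0.13.

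**Figure D3:**
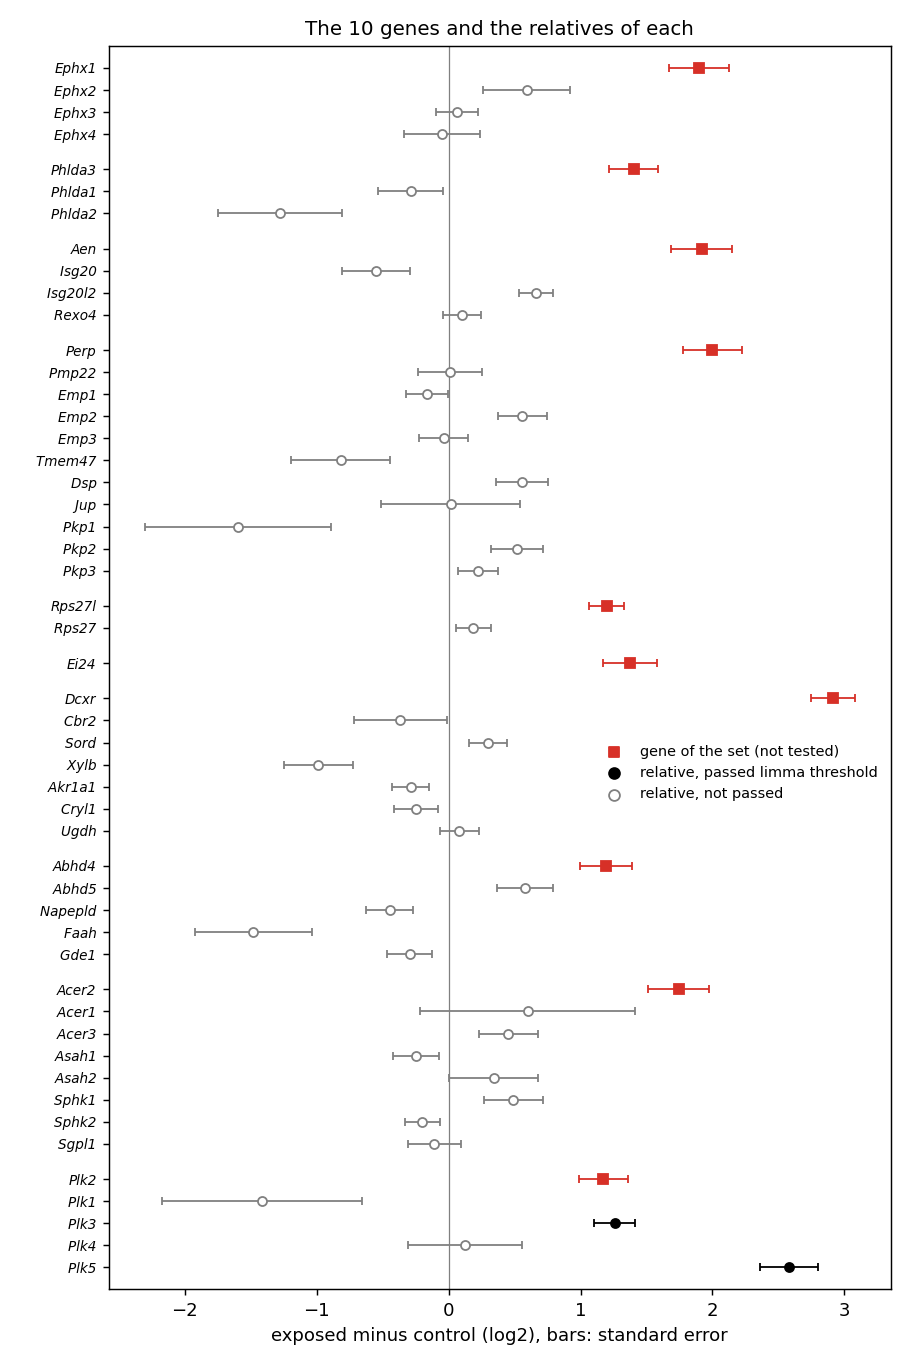
Log2 difference, exposed minus control, with its standard error (horizontal axis) for the 10 genes (squares, not tested) and, under each, its relatives (circles, filled where limma's threshold was passed). Only Plk3 and Plk5 among the 40 relatives passed, at 1.26 and 2.58. No relatives were listed for Ei24.

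The other p53-linked genes, 47 in 5 roles and all on the array, were compared in the same fit. Of these, 20 rose and 0 fell, against 0.904% and 0.295% of RefSeq genes, and the median log2 difference of the list was 0.92. Without S590 13 of them passed. By role, 7 of 11 genes of arrest and checkpoint rose, 7 of 11 of apoptosis, 2 of 8 of p53 feedback, 1 of 5 of repair and nucleotide supply, and 3 of 12 of metabolism and stress. The lists were written with earlier results of these arrays known and are not independent evidence of a direction.

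In arrest and checkpoint the largest rises were in Gtse1, a microtubule-binding regulator of p53, at 5.01 ± 0.54 (SE), and Cdkn1a, the inhibitor p21 of cyclin-dependent kinases, at 3.83 ± 0.30. The Gtse1 probe was well above background on 2 of 4 control arrays, and its difference fell below that of Cdkn1a with other background treatment, at 3.14 against 3.79 with normexp and 3.30 against 3.80 in the deposited values. In apoptosis they were in Pmaip1, which encodes Noxa, at 3.58 ± 0.44, and Pidd1, a scaffold for caspase-2 listed on the array as Lrdd, at 3.11 ± 0.25. The Pmaip1 probe was well above background on 3 of 4 control arrays, and Pmaip1 and Pidd1 were at 2.65 and 2.63 with normexp and at 2.73 and 2.75 in the deposited values. The feedback genes Mdm2 and Mdm4, which restrain p53, rose by 2.32 ± 0.23 and 1.65 ± 0.24. Polk, a translesion polymerase, rose by 2.14 ± 0.21. In metabolism and stress, Gdf15, a secreted stress cytokine, rose by 4.23 ± 0.65, and Ddit4, an inhibitor of mTOR signalling, by 2.34 ± 0.14. Limma's adjusted p for these genes ran from 0.0013 for Ddit4 to 0.0363 for Gdf15. Gdf15 no longer passed without control 2, control 4 or any 1 of the 4 exposed thyroids, with adjusted p from 0.0595 to 0.121. Mdm4 no longer passed without control 2, 3 or 4, S539, S589 or S590 (0.0679 to 0.105), Pmaip1 without control 3, S539, S589 or S590 (0.0533 to 0.0637), and Gtse1 without S590 (0.0545). Trp53 itself gave -0.27 ± 0.26 (adjusted p = 0.699).

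**Figure D4:**
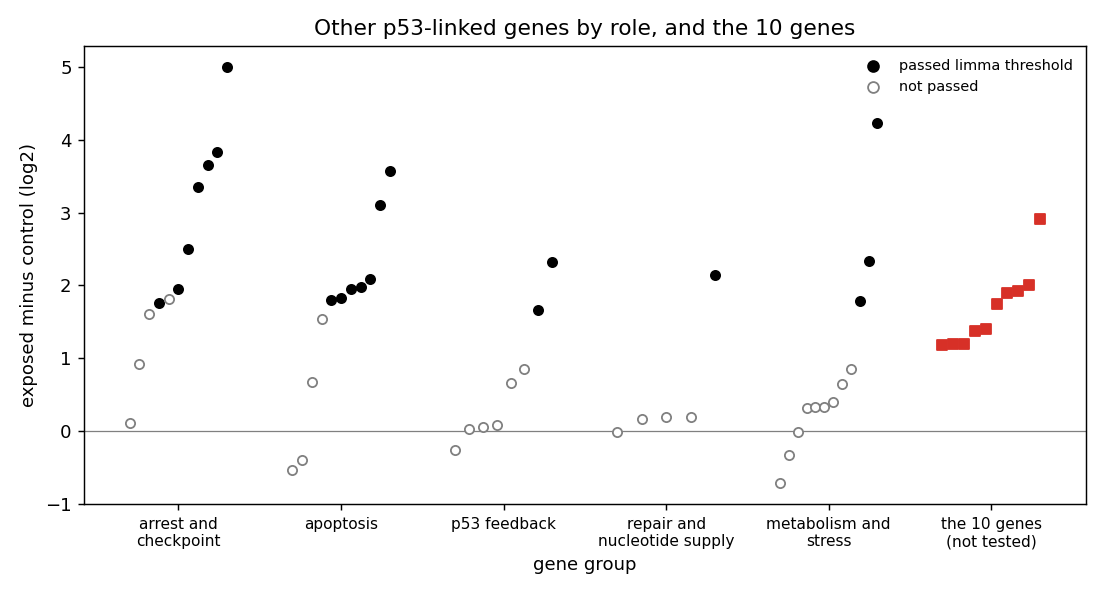
Log2 difference, exposed minus control (vertical axis), of 47 other p53-linked genes in 5 roles (circles, filled where limma's threshold was passed) and of the 10 genes (squares, not tested). The 10 genes lie between 1.17 and 2.91, and the 20 listed genes that passed lie between 1.65 and 5.01.

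The genes most like the 10 in pattern were looked for by Pearson's correlation with the mean of the 10 over the 8 arrays, among RefSeq genes whose log2 signal averaged 7 or more. The 5 highest were Cpt1c (0.998), Rprm (0.996), Tnfrsf10b (0.996), Polk (0.995) and Slc19a2 (0.995). Cpt1c is a carnitine palmitoyltransferase family member and Slc19a2 a thiamine transporter. Rprm, Tnfrsf10b and Polk were among the p53-linked genes above. Their log2 differences were 3.22, 3.66, 2.08, 2.14 and 2.40 in this order. A correlation over 8 arrays in 2 separated groups mostly repeats the difference between the groups.

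The differences of 9 of the 10 genes moved little with the processing. Across 15 other settings, among them another scaling, other background corrections, the deposited values and the loss of any 1 array, the median of the 10 genes stayed between 1.40 and 1.70. The groups stayed apart in all 10 genes with 75th percentile scaling, with normexp, without background correction and in the deposited values. Array weights leave the signals unchanged, and leaving out an array can hardly create an overlap, so the same count there adds nothing. For the mean of a gene's probes it was not counted. Dcxr ran from 2.79 to 2.99, Perp from 1.86 to 2.13, Ephx1 from 1.75 to 2.05 and Aen from 1.76 to 2.06. Acer2 ran from 0.98 to 1.93, its lower values being those of the settings that do not subtract the local background or that add an offset.

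**Figure D5:**
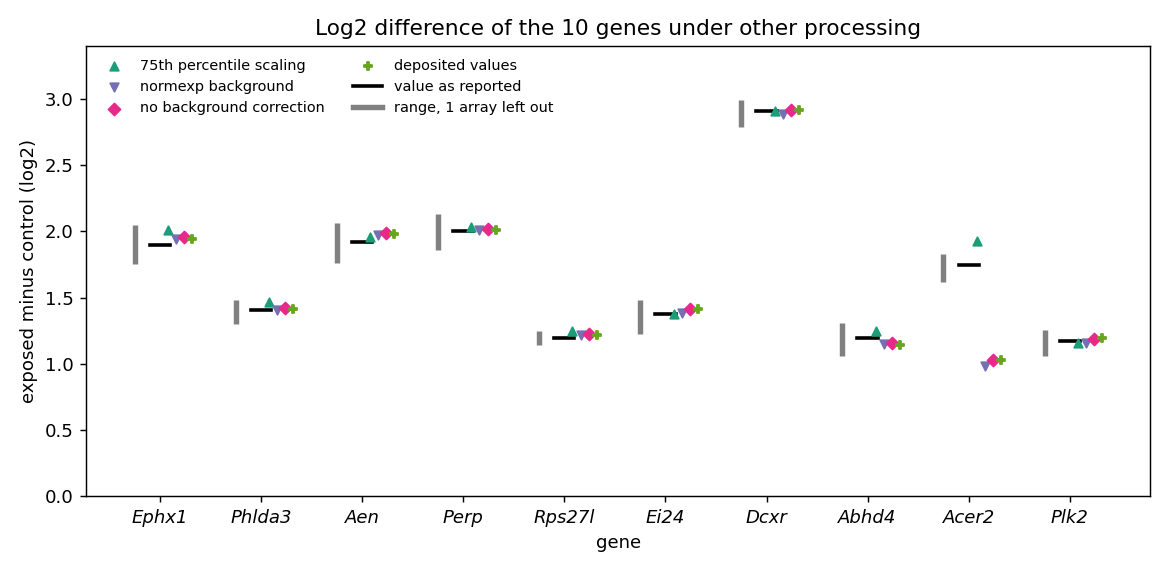
Log2 difference, exposed minus control (vertical axis), of the 10 genes as reported (black line), under 4 other ways of processing (symbols) and with each array left out in turn (grey bar, lowest to highest). Acer2 is the gene whose symbols spread, from 0.98 to 1.93, while Dcxr stays between 2.79 and 2.99.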

How the data were processed

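The authors extracted spot intensities from Agilent SurePrint G3 mouse arrays with Feature Extraction 10.7.3.1 (probe positions on mm9) and deposited them with a table of quantile-normalized log2 values. That deposited log2 table lay within 0.038 of quantile-normalized log2 median signals without background subtraction. Here the background-subtracted intensity deposited by the authors (gProcessedSignal) was taken as log2 and the arrays were quantile-normalized. Spots of a probe were then averaged (59305 spots, 55681 probes). Exposed and control thyroids (n = 4 each) were compared with limma 3.58.1 in R 4.3.3 and Benjamini-Hochberg adjustment over all probes, at a threshold of 0.05. Each gene was read by its RefSeq probe of highest mean signal. Precision is limited by 4 arrays a group. The 10 genes, the gene lists and the markers were chosen with earlier results of these data known. Named were all 10 genes, relatives that passed or describe a family, the 2 largest changes that passed per p53 role, and the 5 most similar patterns. Alternatives were 75th percentile scaling, normexp (offset 50), median signal, a dim-probe filter, the deposited values, array weights, the methods' t-test, leaving out marked outlier spots, the mean of a gene's probes, and leaving out each array. Promoters came from RefSeq (GRCm38.p6), whose coordinates are not comparable with mm9.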

Additional observations from a re-analysis of the deposited data

Results flagged for a closer look

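Plk2 in S539, with a log2 signal of 11.09, stood apart from the other exposed thyroids at 10.62 to 10.67, by Dixon's test for an outlying value (ratio 0.875). It was the 1 flag among 42 groups of 4 thyroids examined, where chance at 1 in 20 gives about 2.1. S539 was the highest exposed thyroid in 9 of the 10 genes.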

How the results depend on the processing

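Against 435 probes called over the whole array, 577 were called with 75th percentile scaling, 857 with normexp, 962 with the median signal, 955 in the deposited values, 733 with the filter on dim probes, 289 by the methods' t-test, which they name for comparisons of 2 conditions and not for the arrays, after Benjamini-Hochberg adjustment (6962 before it) and 959 with array weights. Leaving out 1 array gave 100 (without S590) to 485 (without control 1), with 110 without S589, 117 without control 2, 158 without S539, 202 without S588, 219 without control 3 and 230 without control 4. The share of calls that were higher was 75.2%, against 84.7% with 75th percentile scaling and 60.9% with array weights. With an array left out it was 65.2% (without control 1) to 86.6% (without S588). The 75th percentile scaling moved the median log2 difference of all probes from 0.0077 to 0.165. Of the 40 relatives, 4 were called with array weights (Faah lower and Isg20l2 higher besides Plk3 and Plk5), 3 with normexp and with the filter on dim probes (Isg20l2 higher in both), and 1 to 3 with an array left out, 1 of them (Plk5) without control 2, S539, S589 or S590. Of the 47 other p53-linked genes 13 (without S590) to 19 were called with an array left out and 15 to 25 under the other settings. Acer2 moved from 1.74 to 0.98 with normexp and to 1.03 with the median signal and in the deposited values. Besides the losses with an array left out, Pmaip1, Gdf15 and Mdm4 missed the threshold by the methods' t-test, with adjusted p of 0.0542, 0.0993 and 0.0674. No sign reversed. The cause of these changes was not tested, and neither was the part of the smaller sample when an array is left out. Dim probes such as those of Acer2 are limited by signal over background. No paired analysis was possible because the groups share no replicate numbers.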
